A study of Mus musculus with 6 samples.

Results

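Expression of 35 genes of glycolysis and the hypoxia response was followed in mouse intestinal organoids, which are cultures of gut epithelium. The 35 symbols are a list of known pathway genes, drawn up with earlier results of these data known, and were looked up by name in the deposited table of 31227 genes. They hold 16 glycolytic enzymes, 3 regulators of glycolytic flux and 16 other genes known as targets of the hypoxia-inducible factors (HIF). All 35 were found and all 35 passed the filter on low counts. Aldoa had 2 rows, of which the one with the higher total was used. The 6 RNA-seq libraries came from wild type organoids (WT, 2 libraries), Smad4-deficient organoids (Smad4 KO, 2 libraries) and Smad4-deficient organoids given 0.5 nM TGF-β (Smad4 KO+TGFb, 2 libraries). All were grown in medium with EGF, Noggin and R-spondin1, all are labelled 48 h, and the protocol can also be read as a longer exposure to TGF-β. The sources used here give neither the way Smad4 was inactivated nor the part of the gut, the age or the strain of the mice, and no WT library with added TGF-β was analysed here. The labels do not say that the libraries of a group came from separate cultures or animals, so p-values reflect the spread between the sequenced samples alone, and that spread may be technical.

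Glycolysis splits glucose into pyruvate in the cytosol and yields ATP without oxygen, and lactate dehydrogenase turns pyruvate into lactate so that the pathway can keep running. HIF is a pair of an oxygen-labile subunit (HIF-1α or HIF-2α) and the stable ARNT; prolyl hydroxylases mark the labile subunit for destruction by VHL when oxygen is present. When it is stable, HIF binds short elements with the core ACGTG or GCGTG and raises genes of glucose use, pH, vessel growth and mitochondrial turnover. Gut epithelium lives on a steep oxygen gradient and is a textbook site of physiological hypoxia, and proliferating crypt cells are known for high glycolysis. RNA levels alone are described here: neither oxygen, HIF protein nor metabolic flux was measured.

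Libraries held 40.5 to 50.7 M units of estimated counts (M, 1e6). Values are given as counts per 1e6 after TMM scaling (CPM), and changes as log2 fold changes with a standard error (SE). The SE was worked back from the test below, as the size of the log2 fold change over the square root of the F statistic. A gene passed when edgeR's quasi-likelihood test gave a Benjamini-Hochberg adjusted p under 0.05 over 15503 genes. Smad4 itself was at 99.4 and 109 CPM in WT, 21.7 and 23.1 in Smad4 KO and 25.2 and 29.5 in Smad4 KO+TGFb, lower in both mutant groups as labelled. The 3 comparisons share libraries: Smad4 KO serves in the first and second, WT in the first and the last, and the treated group in the last pair, so their values are set side by side and are not independent. The epithelial label fits the markers: fibroblast genes summed to at most 0.479 CPM, with Col1a2, Col3a1, Dcn and Lum at 0 throughout, and endothelial genes to at most 0.949 CPM, with Cdh5 and Kdr at 0. Leukocyte genes summed to 3.25 to 4.99 CPM, mostly Cd68, with Cd79a at 0 throughout.

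Most of the 35 genes were lower in Smad4 KO than in WT, and most were lower with TGF-β than without it. In Smad4 KO against WT, 19 fell and 3 rose (Ldha, Ndrg1 and Pfkfb4), while 13 did not pass. Since the list is not independent of the data, such counts describe it and test nothing. Over all genes tested, 13.4% fell and 16.9% rose in that comparison. In Smad4 KO+TGFb against Smad4 KO, 21 fell and 2 rose (Ddit4 and Hilpda), against 8.48% and 7.78% of all genes. In Smad4 KO+TGFb against WT, 28 fell and 1 rose (Ddit4), against 19% and 20.7% of all genes. The median log2 fold change of the 35 was -0.30, -0.38 and -0.56 in these comparisons, and that of all genes was -0.02, -0.01 and -0.02. All libraries of 1 group lay below all of the other for 23, 27 and 29 of the 35 (34.5%, 29.1% and 37.3% of all genes), and above them for 6, 4 and 3 (32.2%, 27.7% and 35%). In a mixed culture like this, fewer cells of a type and less RNA per cell cannot be told apart.

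**Figure D1:**
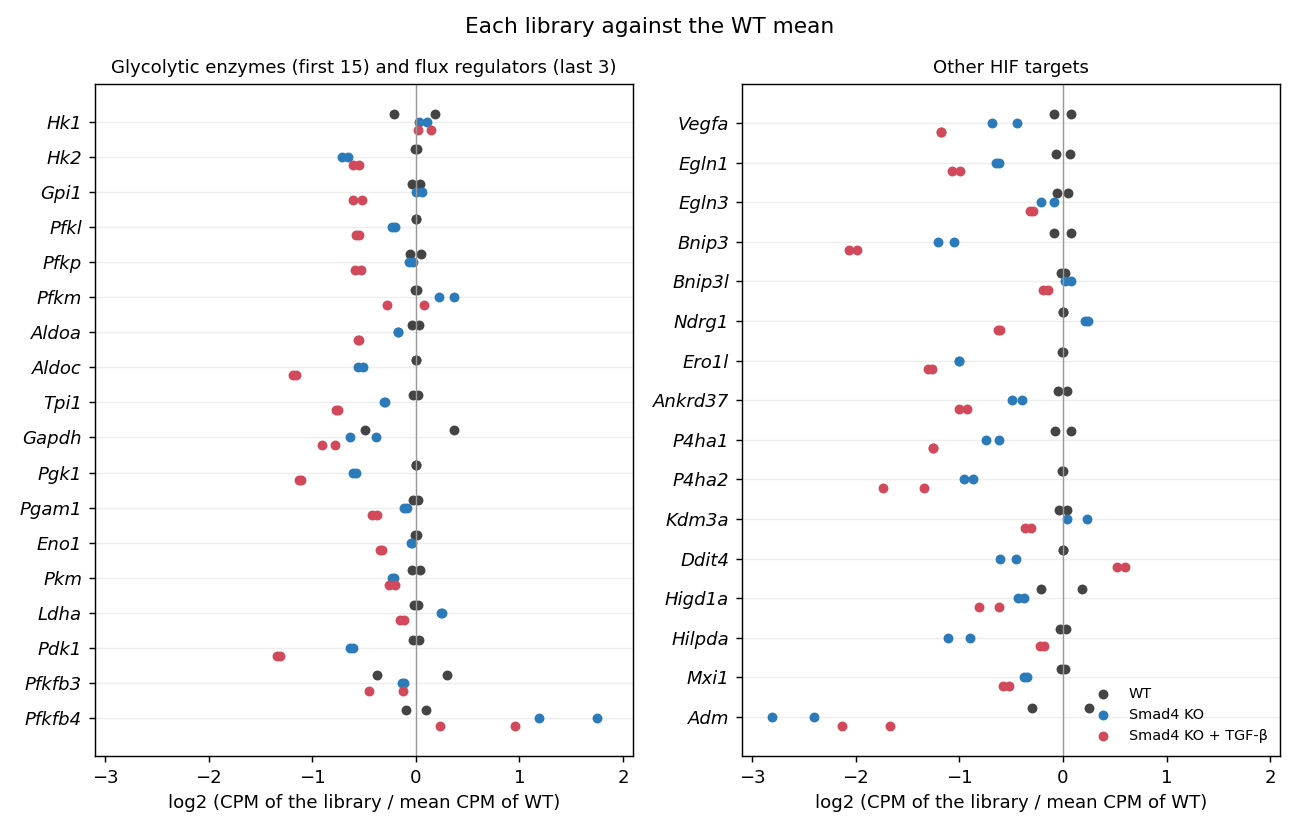
Each point is 1 library; the x axis is the log2 ratio of its CPM to the mean CPM of WT, for 34 genes (Eno2, at under 1 CPM throughout, is left out). The blue Smad4 KO points lie left of the WT points for most genes, the red Smad4 KO+TGFb points lie further left, and the red points of Ddit4 lie to the right of its other points.

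The enzymes and the other HIF targets can be set side by side. Of the 16 enzymes, 7 fell and 1 rose in Smad4 KO against WT (median -0.14), and of the 16 other HIF targets 11 fell and 1 rose (median -0.54). Of all genes, 13.4% fell and 16.9% rose there. TGF-β against Smad4 KO alone gave 10 lower and 0 higher among the enzymes (median -0.36), and 10 lower and 2 higher among the other HIF targets (median -0.35). In that comparison 8.48% of all genes were lower and 7.78% higher. Without the second treated library, 6 of the other HIF targets passed as lower there, and with the first Smad4 KO library or either treated library left out, 1 passed as higher. Against WT, the treated group had 13 enzymes lower and 0 higher (median -0.56), and 14 other targets lower and 1 higher (median -0.84), beside 19% and 20.7% of all genes. More than 2-fold lower in that last comparison were 2 of the enzymes, Aldoc and Pgk1, and 7 of the other HIF targets, Vegfa, Egln1, Bnip3, Ero1l, P4ha1, P4ha2 and Adm, against 5.74% of all genes. By edgeR, 0 enzymes had an unadjusted p under 0.05 for a rise in either comparison with the treated group, and DESeq2 called 0 as well. No test of the difference between these groups of genes was run, since genes are not replicates.

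**Figure D2:**
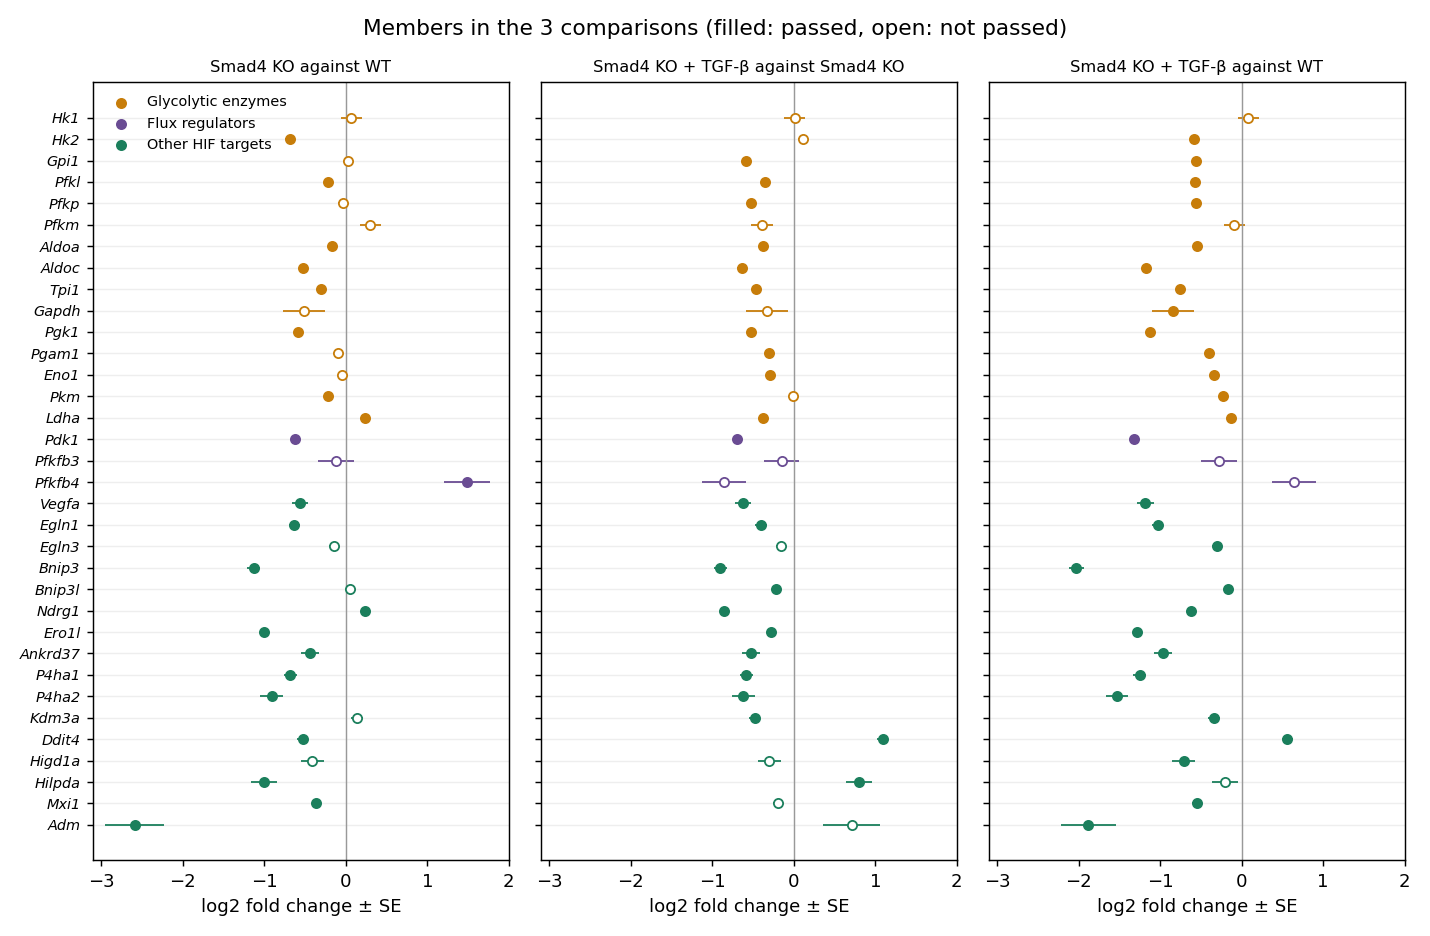
The x axis is the log2 fold change with its SE in each of the 3 comparisons, with 1 row per gene, filled points for genes that passed and open points for those that did not. Enzymes lie between -1.17 and 0.30 apart from the omitted Eno2, while Bnip3 reaches -2.03 and Adm -2.59, and Pfkfb4, Ddit4 and Hilpda stand to the right in 1 or more comparisons.

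The proximal promoters of several members carry the HIF core, and those of genes that the results below turn on are shown for that reason. Windows from 250 bases before to 50 after each annotated start (RefSeq, GRCm38.p6) were at hand for 33 of the 35 genes, and Bnip3l and Ndrg1 had none. Both strands were searched for ACGTG and for the related GCGTG, and a match on the other strand reads as the reverse complement in the lines below. The palindrome CACGTG, which is also the E-box of MYC, counts as 1 match on each strand. At least 1 match stood in 40 of the members' 52 windows (76.9%), against 14380 of 32851 windows of all genes (43.8%). Counted by gene, 14 of 14 other HIF targets, 13 of 16 enzymes and 3 of 3 regulators had a match, against 46.7% of all genes, and the windows of Gpi1, Tpi1 and Eno2 had none. A gene counted if any of its windows matched, and members had more windows per gene (52 for 33, against 32851 for 27025), which favours them. For Vegfa, Mxi1, Hk1, Aldoa and Pkm the most upstream window had 0 matches, and only windows of other starts matched. HIF targets are in part known through such elements, so these shares describe the list. A match is not a binding site, and binding was not measured. In the sequences, given 5′ to 3′ on the gene's strand and ending at most 20 bases past the first annotated transcript start, capitals mark the matches. Pgk1 (chrX:106186850-106187119, plus strand) has 2, Pdk1 (chr2:71872974-71873243, plus strand) 2, Bnip3 (chr7:138909500-138909756, minus strand) 5, P4ha1 (chr10:59323046-59323315, plus strand) 3 and Ddit4 (chr10:59951815-59952020, minus strand) 2. The first 4 of these genes fell and Ddit4 rose with TGF-β.
Pgk1: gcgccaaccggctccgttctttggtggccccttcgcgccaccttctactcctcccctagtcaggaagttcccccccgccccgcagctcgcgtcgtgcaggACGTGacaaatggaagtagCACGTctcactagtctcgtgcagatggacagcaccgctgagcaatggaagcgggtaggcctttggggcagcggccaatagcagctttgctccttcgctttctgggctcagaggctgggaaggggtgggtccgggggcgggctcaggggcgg
Pdk1: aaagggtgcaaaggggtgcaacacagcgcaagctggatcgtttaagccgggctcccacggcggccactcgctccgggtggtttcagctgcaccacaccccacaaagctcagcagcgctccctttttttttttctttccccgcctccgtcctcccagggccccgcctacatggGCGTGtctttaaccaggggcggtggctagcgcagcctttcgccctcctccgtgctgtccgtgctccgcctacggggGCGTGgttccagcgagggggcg
Bnip3: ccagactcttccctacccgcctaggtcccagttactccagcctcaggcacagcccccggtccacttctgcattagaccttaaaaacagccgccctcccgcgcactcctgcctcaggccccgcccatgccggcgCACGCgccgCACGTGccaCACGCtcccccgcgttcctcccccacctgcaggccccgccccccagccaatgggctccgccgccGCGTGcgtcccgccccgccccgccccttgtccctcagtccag
P4ha1: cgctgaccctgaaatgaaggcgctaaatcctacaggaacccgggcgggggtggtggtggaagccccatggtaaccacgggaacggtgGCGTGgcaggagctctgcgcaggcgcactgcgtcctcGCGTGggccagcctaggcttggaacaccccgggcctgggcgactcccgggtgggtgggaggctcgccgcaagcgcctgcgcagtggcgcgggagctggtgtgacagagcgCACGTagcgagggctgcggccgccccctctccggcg
Ddit4: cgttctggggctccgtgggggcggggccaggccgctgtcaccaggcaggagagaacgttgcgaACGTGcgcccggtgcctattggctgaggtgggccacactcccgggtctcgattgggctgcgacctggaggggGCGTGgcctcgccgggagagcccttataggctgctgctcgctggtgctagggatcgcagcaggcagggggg

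Per kb of exon, 8 enzymes stood above all other members in WT. The length merges all annotated exons of a gene, so levels and ranks between genes depend in part on the annotation. By CPM alone, Pkm was highest in WT with a mean of 3014. Pgk1 led in WT with 936 CPM per kb, followed by Ldha with 667.5, Aldoa with 657 and Pkm with 603. The order of Ldha and Aldoa does not stand beyond their spread, since the library values of both overlap on this scale. Ldha led in Smad4 KO with 791 CPM per kb and in Smad4 KO+TGFb with 609, where Pgk1 had moved from the first to the fourth place with 431.5. Among the other HIF targets, Ero1l (155 CPM per kb) and Ndrg1 (118) were highest in WT, and Ddit4 was highest in the treated group (120 CPM per kb, after 81.0 in WT and 56.2 in Smad4 KO). Adm (3.33 CPM per kb in WT) and Eno2 (0.0315) stood at the bottom.

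Among the enzymes of the first steps, Hk2 fell with Smad4 loss, and Gpi1 and Pfkp fell with TGF-β. Hk2, the inducible hexokinase, was at 105 and 107 CPM in WT, 64.8 and 67.1 in Smad4 KO and 69.4 and 72.6 with TGF-β. Both mutant groups were thus below WT and close to each other: the log2 fold change was -0.69 ± 0.06 (SE) in Smad4 KO against WT (adjusted p = 0.00035) and 0.11 ± 0.06 with TGF-β against Smad4 KO (adjusted p = 0.29). Gpi1, which turns glucose 6-phosphate into fructose 6-phosphate, was at 1717 and 1633 CPM in WT, 1675 and 1739.7 in Smad4 KO and 1102 and 1168 with TGF-β. Only the treated libraries stood apart, with a log2 fold change of -0.59 ± 0.04 against Smad4 KO (adjusted p = 0.00022). An overlapping RNA on the opposite strand, Gm26762, covers 11.5% of the exons of Gpi1. Pfkp, a subunit of phosphofructokinase, the committing step of the pathway, was at 357 and 383 CPM in WT, 355 and 364 in Smad4 KO and 247 and 256 with TGF-β. Its pattern was that of Gpi1, with a log2 fold change of -0.52 ± 0.05 for TGF-β against Smad4 KO (adjusted p = 0.00087). Pitrm1, on the opposite strand, covers 5.6% of the exons of Pfkp and had a mean of 82.67 CPM.

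Pfkl, the liver-type subunit and the most abundant of the 3 in these organoids, fell in both steps. It was at 548 and 548 CPM in WT, 466 and 475 in Smad4 KO and 374 and 367 with TGF-β, so that no groups overlapped. Its log2 fold change was -0.22 ± 0.03 in Smad4 KO against WT (adjusted p = 0.0025) and -0.35 ± 0.03 with TGF-β against Smad4 KO (adjusted p = 0.00073). The muscle-type Pfkm ranged from 25.7 to 40.2 CPM and Hk1 from 60.0 to 79.1 CPM, and neither passed in any comparison. For Pfkm the fall with TGF-β against Smad4 KO passed when the first treated library was left out (adjusted p = 0.0404).

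Aldoc, Aldoa and triose phosphate isomerase fell stepwise. Aldoc, an aldolase best known from brain, was at 122 and 122 CPM in WT, 82.5 and 85.5 in Smad4 KO and 54.5 and 53.6 with TGF-β. The groups were well apart, with log2 fold changes of -0.53 ± 0.05 for Smad4 KO against WT (adjusted p = 0.00071), -0.64 ± 0.05 for TGF-β against Smad4 KO (adjusted p = 0.00068) and -1.17 ± 0.05 for the treated group against WT, a 2.25-fold fall. Aldoa, the ubiquitous aldolase, was at 1959 and 1867 CPM in WT, 1700.2 and 1694 in Smad4 KO and 1295 and 1310.1 with TGF-β. It showed the same order at a smaller size (-0.17 ± 0.03, -0.38 ± 0.03 and -0.55 ± 0.03). Tpi1, which interconverts the products of the split sugar, was at 1068 and 1032 CPM in WT, 854 and 851 in Smad4 KO and 615 and 622 with TGF-β. Its log2 fold change was -0.30 ± 0.03 in the first step (adjusted p = 0.00036) and -0.46 ± 0.03 in the next (adjusted p = 0.00013).

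Pgk1, phosphoglycerate kinase, which makes the first ATP of the pathway, changed most among the abundant enzymes. It was at 2098 and 2102 CPM in WT, 1409.8 and 1379 in Smad4 KO and 974 and 963 with TGF-β. The spread within each group was small beside the steps, which measured -0.59 ± 0.02 (adjusted p = 5.9e-06) and -0.53 ± 0.02 (adjusted p = 3e-05) on the log2 scale and gave a 2.17-fold fall in all. Pgam1 and Eno1, the next enzymes downstream, changed less: in Smad4 KO against WT they did not pass (-0.10 ± 0.03, adjusted p = 0.066, and -0.05 ± 0.02, adjusted p = 0.11). With TGF-β against Smad4 KO they fell by 0.30 ± 0.03 and 0.29 ± 0.02 on the log2 scale (adjusted p = 0.0021 and 0.00017). Eno1 shares long near-identical stretches with Eno1b, which had a mean of 386 CPM in these libraries. Summed, Eno1 and Eno1b were at 1945 and 1968 CPM in WT, 1881 and 1882 in Smad4 KO and 1539.7 and 1527 with TGF-β, in the same order as Eno1 alone.

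The last enzymes did not follow Pgk1. A transcript on the same strand, Gm49759, covers 15.3% of the exons of Pkm, pyruvate kinase of most tissues. Pkm was at 3097 and 2931 CPM in WT, 2599 and 2567 in Smad4 KO and 2516 and 2623 with TGF-β. It fell with Smad4 loss (-0.22 ± 0.03, adjusted p = 0.0027), and with TGF-β the libraries overlapped those of Smad4 KO (-0.01 ± 0.03, adjusted p = 0.92). Ldha, which makes lactate, was at 2243 and 2176 CPM in WT, 2610 and 2626 in Smad4 KO and 2045 and 1987 with TGF-β. It was the enzyme that rose with Smad4 loss (0.24 ± 0.02, adjusted p = 0.00041), and it fell with TGF-β (-0.38 ± 0.02, adjusted p = 0.00014) to a level slightly below WT (-0.13 ± 0.02, adjusted p = 0.0038). Eno2, the neuronal enolase, was at 0 to 0.9 CPM, and no fold is given for it.

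Gapdh, often used as a reference gene, is uncertain in this table. It was at 82.4 and 45.4 CPM in WT, 41.1 and 48.8 in Smad4 KO and 37.3 and 34.0 with TGF-β, or 15.5 CPM per kb in WT against 381.5 for Tpi1 and 936 for Pgk1, its neighbours in the pathway. The annotation holds 127 near-identical copies of it (200 bases or more at 95% identity), of which 5 were in the table and 3 above 0, with 2.90 CPM in sum. Its fall in the treated group against WT (-0.84 ± 0.26, adjusted p = 0.0444) was lost by DESeq2 (adjusted p = 0.054), with the replicate block (0.0567) and in the fit of the 4 libraries compared (0.0619). Without the first WT library the log2 fold change was -0.35 (adjusted p = 0.126), and the call was also lost without either Smad4 KO library (adjusted p = 0.0638 and 0.0641) or either treated library (0.123 and 0.167). Without the second WT library it passed in Smad4 KO against WT (-0.87, adjusted p = 0.00964).

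**Figure D3:**
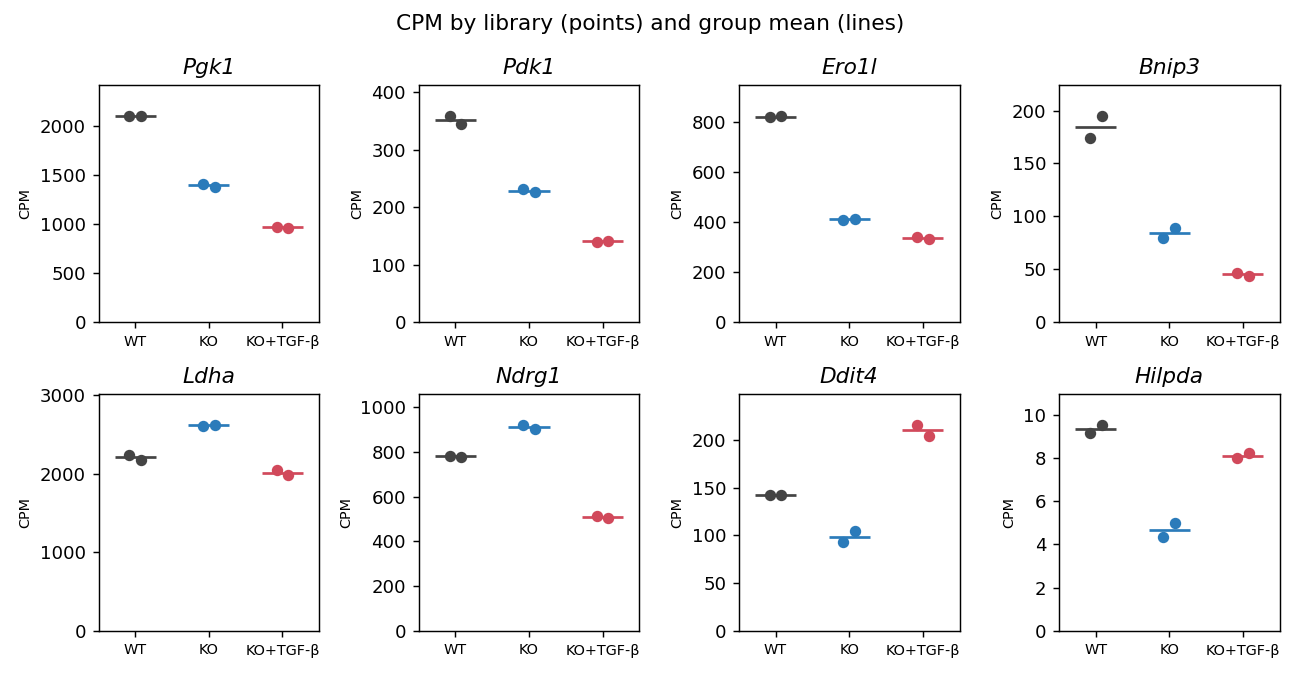
CPM of each library (points) and the group mean (line) for 8 genes, each on its own axis from 0. Pgk1, Pdk1, Ero1l and Bnip3 descend from WT to Smad4 KO to Smad4 KO+TGFb, Ldha and Ndrg1 are highest in Smad4 KO, and Ddit4 and Hilpda are lowest there.

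Of the 3 regulators of flux, Pdk1 followed the enzymes and Pfkfb4 went the other way in Smad4 KO against WT. Pdk1, a kinase that blocks pyruvate dehydrogenase and so keeps pyruvate from the mitochondrion, was at 359 and 345 CPM in WT, 231 and 226 in Smad4 KO and 139 and 142 with TGF-β. Each group stood well below the one before, by -0.62 ± 0.04 (adjusted p = 0.00013) and -0.70 ± 0.04 (adjusted p = 0.00016) on the log2 scale, a 2.5-fold fall in all. Pfkfb4 makes and breaks fructose 2,6-bisphosphate, the activator of phosphofructokinase. It was at 19.0 and 21.7 CPM in WT, 68.3 and 46.3 in Smad4 KO and 23.9 and 39.5 with TGF-β. The mutant libraries were both above WT but far apart, and the 2.82-fold rise (log2 fold change 1.49 ± 0.28, adjusted p = 0.0085) was lost without the first WT library (adjusted p = 0.0591). The difference between the treated and the untreated mutant (-0.85 ± 0.27, adjusted p = 0.089) passed without the second treated library (adjusted p = 0.0406) and by DESeq2 (adjusted p = 0.00919). That between the treated mutant and WT (0.64 ± 0.27, adjusted p = 0.11) passed without the first treated library (adjusted p = 0.0314) and by DESeq2 (adjusted p = 0.0356). Pfkfb3, its more widely studied relative, ranged from 36.1 to 60.6 CPM and did not pass, except against WT in the treated group when the second WT library was left out (adjusted p = 0.0374).

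Ero1l, P4ha1 and P4ha2 were each lower in Smad4 KO than in WT and lower with TGF-β than without it. Ero1l, the oxidase that supplies disulfide bonds in the endoplasmic reticulum, was at 818 and 824 CPM in WT, 409.8 and 410.02 in Smad4 KO and 341 and 334 with TGF-β. Most of its change came with Smad4 loss, which took it down 2.0-fold (log2 fold change -1.0 ± 0.03, adjusted p = 3.4e-06), while TGF-β added -0.28 ± 0.03 (adjusted p = 0.0012). P4ha1, a catalytic subunit of collagen prolyl hydroxylase, was at 83.3 and 74.9 CPM in WT, 47.4 and 51.6 in Smad4 KO and 33.2 and 33.2 with TGF-β. The groups did not overlap, with steps of -0.68 ± 0.08 (adjusted p = 0.0015) and -0.58 ± 0.08 (adjusted p = 0.0054). P4ha2, the other such subunit, was at 38.6 and 38.4 CPM in WT, 19.9 and 21.1 in Smad4 KO and 15.2 and 11.6 with TGF-β. Its first step was -0.91 ± 0.14 (adjusted p = 0.004), and the next was -0.62 ± 0.14 (adjusted p = 0.03). The latter was lost in the fit of the 4 libraries compared (-0.61, adjusted p = 0.0639). It was also lost without either WT library (-0.62 in both), either Smad4 KO library (-0.66 and -0.57) or the second treated library (-0.44).

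The mitophagy receptor Bnip3 had the widest change among the well-expressed members, and its relative Bnip3l hardly moved. Bnip3 was at 174 and 195 CPM in WT, 79.8 and 88.9 in Smad4 KO and 46.5 and 44.1 with TGF-β. Each step was near 2-fold or close to it: -1.13 ± 0.08 (2.18-fold, adjusted p = 0.00021) and -0.90 ± 0.08 (adjusted p = 0.00098), and the treated group was 4.07-fold below WT. An antisense RNA, Gm45507, covers 22.3% of its exons, and reads of the 2 strands may not have been told apart. Bnip3l was at 179 and 185 CPM in WT, 192 and 185 in Smad4 KO and 164 and 159 with TGF-β. It did not pass in Smad4 KO against WT. Its fall with TGF-β (-0.22 ± 0.05 against Smad4 KO, adjusted p = 0.025) was lost with the replicate block (adjusted p = 0.0545). That fall was also lost without either Smad4 KO library (-0.19 and -0.25) or either treated library (-0.24 and -0.2). Against WT the fall (-0.17 ± 0.05, adjusted p = 0.032) was lost with the replicate block (adjusted p = 0.059). It was also lost there without either WT library (-0.19 and -0.14) or either treated library (-0.19 and -0.14). Antisense RNA Gm47112 (mean 0.03 CPM) covers 22.5% of the exons of Higd1a, a small inner-membrane protein. Higd1a ranged from 47.7 to 62.5 CPM in WT, 40.7 to 42.5 in Smad4 KO and 31.3 to 36.0 with TGF-β. It fell only in the treated group against WT (-0.71 ± 0.14, adjusted p = 0.0084), a call lost without the first treated library (adjusted p = 0.0526), and in Smad4 KO against WT it passed by DESeq2 (adjusted p = 0.0375) and without the second WT library (0.0236).

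Of the feedback genes of the oxygen sensor, Egln1 changed more than Egln3. Egln1 (PHD2), the main prolyl hydroxylase of HIF, was at 171 and 155 CPM in WT, 106 and 104 in Smad4 KO and 81.9 and 77.5 with TGF-β. It fell by 0.63 ± 0.07 with Smad4 loss (adjusted p = 0.00079) and by 0.40 ± 0.07 with TGF-β (adjusted p = 0.0092) on the log2 scale, the latter lost without the second treated library (adjusted p = 0.0616). Egln3 (PHD3) ranged from 157 to 203 CPM over all libraries. It passed only in the treated group against WT (-0.30 ± 0.06, adjusted p = 0.0094), which was lost without the second WT library (adjusted p = 0.0525) or the second treated library (0.0563).

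The secreted factors were lower in both mutant groups. Vegfa, the main growth factor of blood vessels, was at 129.9 and 116 CPM in WT, 90.8 and 76.4 in Smad4 KO and 54.4 and 54.4 with TGF-β. The groups did not overlap, with steps of -0.56 ± 0.1 (adjusted p = 0.0068) and -0.62 ± 0.1 (adjusted p = 0.008). Adm, the precursor of the vasodilator adrenomedullin, was low throughout, at 6.4 and 4.38 CPM in WT, 1.02 and 0.77 in Smad4 KO and 1.69 and 1.23 with TGF-β. Its 6.02-fold fall with Smad4 loss (-2.59 ± 0.36, adjusted p = 0.0026) rests on 527 units in WT and 71 in Smad4 KO. TGF-β against Smad4 KO gave 0.71 ± 0.35 (adjusted p = 0.25).

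Ddit4, Hilpda and Ndrg1 changed in opposite directions with Smad4 loss and with TGF-β. Ddit4 (REDD1), an inhibitor of mTORC1 that also answers to glucocorticoids and stress, was at 142 and 142 CPM in WT, 93.3 and 104 in Smad4 KO and 216 and 204 with TGF-β. It fell with Smad4 loss (-0.53 ± 0.07, adjusted p = 0.0018), then rose 2.13-fold with TGF-β (1.09 ± 0.07, adjusted p = 0.00018) to a level above WT (0.56 ± 0.07, adjusted p = 9e-04). Hilpda, a lipid droplet protein that inhibits lipolysis, was at 9.13 and 9.54 CPM in WT, 4.33 and 5.01 in Smad4 KO and 8.0 and 8.21 with TGF-β. It fell (-1.0 ± 0.16, adjusted p = 0.0048) and rose again (0.80 ± 0.16, adjusted p = 0.019). The rise was lost without the first Smad4 KO library (adjusted p = 0.0825) or either treated library (0.0773 and 0.0903). Ndrg1, a differentiation-linked cytosolic protein, was at 781 and 778 CPM in WT, 922 and 904 in Smad4 KO and 512 and 505 with TGF-β. It was highest in Smad4 KO (0.23 ± 0.02 against WT, adjusted p = 0.00094) and fell with TGF-β by 0.85 ± 0.02 on the log2 scale (adjusted p = 1.5e-05).

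Mxi1, a partner of MAX that opposes MYC, was at 77 and 75.2 CPM in WT, 60.0 and 58.5 in Smad4 KO and 52.9 and 51.0 with TGF-β. It fell in Smad4 KO against WT (-0.36 ± 0.06, adjusted p = 0.0061) and did not pass between the mutant groups (-0.19 ± 0.06, adjusted p = 0.094). Kdm3a, a histone H3K9 demethylase, ranged from 150 to 158 CPM in WT, 158 to 180 in Smad4 KO and 119 to 124 with TGF-β. It fell with TGF-β against Smad4 KO (-0.48 ± 0.07, adjusted p = 0.0073) and against WT (-0.34 ± 0.07, adjusted p = 0.012). Both were lost without the first treated library (adjusted p = 0.0534 and 0.0746), and the second of them also without the second WT library (0.064). Ankrd37, an ankyrin-repeat protein, was at 23.2 and 24.6 CPM in WT, 17.0 and 18.2 in Smad4 KO and 12.6 and 11.9 with TGF-β. Its fall of 0.44 ± 0.11 with Smad4 loss (adjusted p = 0.022) was lost without any 1 of the 4 libraries compared (adjusted p from 0.058 to 0.107), and so was its fall of 0.52 ± 0.11 with TGF-β (adjusted p = 0.02; 0.059 to 0.101). The fall over both (-0.96 ± 0.11, adjusted p = 0.00069) was kept. Lrp2bp, on the opposite strand, covers 22.7% of its exons.

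Of 13 tested genes that make up HIF or control it, 4 rose in Smad4 KO against WT (Hif1a, Arnt2, Egln2 and Cited2) and 1 fell (Hif3a), beside 16.9% and 13.4% of all genes. Hif1a, the labile subunit, which is controlled mostly at the protein level, was at 61.5 and 64.2 CPM in WT, 103 and 93 in Smad4 KO and 107 and 109 with TGF-β. Both mutant groups were above WT, by 0.64 ± 0.07 (adjusted p = 0.00089) and 0.78 ± 0.07 (adjusted p = 0.00025) on the log2 scale. Cited2, which competes with HIF for its coactivator, rose by 1.04 ± 0.1 (adjusted p = 0.00064). Hif3a, whose splice forms can antagonise the others, was at 27.8 and 26.9 CPM in WT, 5.75 and 5.23 in Smad4 KO and 3.22 and 3.58 with TGF-β. It fell 4.98-fold with Smad4 loss (-2.32 ± 0.13, adjusted p = 6.8e-05). With TGF-β it fell by a further 0.69 ± 0.13 (adjusted p = 0.017), which was lost in the fit of the 4 libraries compared (adjusted p = 0.0904). It was also lost without the first Smad4 KO library or the first treated library (log2 fold change -0.62 in both).

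Further HIF targets outside the 35 moved less evenly. Of 18 tested, 8 fell and 3 rose in Smad4 KO against WT (median -0.26), beside 13.4% and 16.9% of all genes. With TGF-β against Smad4 KO 6 fell and 3 rose, beside 8.48% and 7.78%. In the treated group against WT 8 fell and 4 rose, beside 19% and 20.7%. More than 2-fold lower there were 3 of the 18, and 3 were more than 2-fold higher (log2 fold changes from -2.28 to 1.4), beside 890 and 1125 of all 15503 genes. The 3 genes named below were picked by their adjusted p, and all of them fell. The shares that rose against WT (16.7% and 22.2%) were near those of all genes. Stc2, a secreted glycoprotein, was at 136 and 129.6 CPM in WT, 51.2 and 53.4 in Smad4 KO and 27.7 and 26.9 with TGF-β. It fell in steps of -1.34 ± 0.06 (adjusted p = 2.7e-05) and -0.94 ± 0.06 (adjusted p = 0.00025). Plod2, a collagen lysyl hydroxylase, fell 2.82-fold with Smad4 loss (-1.50 ± 0.14, adjusted p = 0.00055). Its further step with TGF-β (-0.63 ± 0.14, adjusted p = 0.029) was lost in the fit of the 4 libraries compared (adjusted p = 0.0709). It was also lost without either WT library (-0.64 and -0.63), the second Smad4 KO library (-0.51) or the first treated library (-0.48). Tfrc, the transferrin receptor, fell by 0.26 ± 0.03 and 0.67 ± 0.03 in the same steps (adjusted p = 0.001 and 5.4e-05).

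Isozymes best known from liver and absorptive epithelium, Pklr and Hkdc1, rose with Smad4 loss, in which Pkm and Hk2 fell. Of 11 other isoforms tested, 5 rose and 1 fell in Smad4 KO against WT, beside 16.9% and 13.4% of all genes. With TGF-β against Smad4 KO 2 rose and 3 fell, beside 7.78% and 8.48%. In the treated group against WT 7 rose and 1 fell, beside 20.7% and 19%. Pklr, the liver-type pyruvate kinase, was at 473 and 455 CPM in WT, 915 and 969.5 in Smad4 KO and 569 and 559 with TGF-β. It rose 2.03-fold and then fell 1.67-fold (adjusted p = 1e-05 and 9.1e-05). Per kb of exon, its share was 19.1% and 19.3% of the pyruvate kinases in WT, 35.2% and 36.9% in Smad4 KO and 25.9% and 24.8% with TGF-β. Hkdc1, the fifth hexokinase, had 40.4% and 40.3% of the hexokinases in WT, 71.3% in both Smad4 KO libraries, and 62.1% and 62.5% with TGF-β. Within each library these shares compare amounts of RNA per length, not activity. The length merges all annotated exons, so the size of a share depends in part on the annotation.

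**Figure D4:**
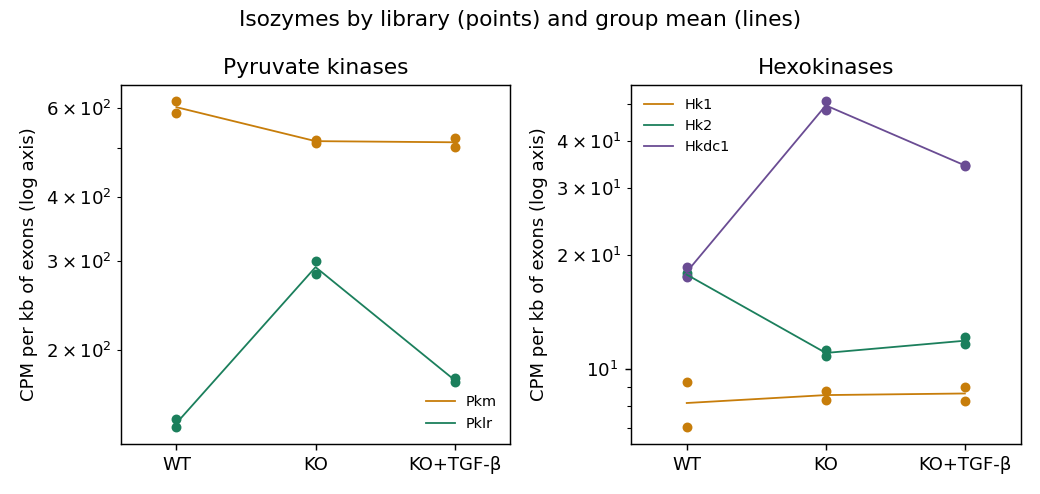
CPM per kb of exon (log axis) of 2 pyruvate kinases and 3 hexokinases in each library (points), with lines through the group means. Pklr and Hkdc1 peak in Smad4 KO while Pkm and Hk2 are lower there than in WT.

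The sugar carriers Slc2a5, Slc5a1 and Slc2a2 rose with Smad4 loss and fell with TGF-β. Of 8 transport genes tested, 3 rose and 3 fell in Smad4 KO against WT, beside 16.9% and 13.4% of all genes. With TGF-β against Smad4 KO 4 fell, beside 8.48%. Slc2a5, the fructose carrier of the brush border, was at 56.5 and 54.8 CPM in WT, 184 and 181 in Smad4 KO and 65.8 and 69.0 with TGF-β. It rose 3.28-fold and fell 2.71-fold (adjusted p = 5.9e-06 and 3.6e-05). Slc5a1, the sodium-glucose carrier, rose 1.64-fold and fell 2.06-fold, and Slc2a2, the basolateral carrier, rose 1.56-fold and fell 2.3-fold. The HIF target Slc2a1 (GLUT1), named here after its values were seen, fell slightly with Smad4 loss (-0.23, adjusted p = 0.024). Of 8 genes of fructose use and gluconeogenesis, 5 rose and 2 fell with Smad4 loss, beside 16.9% and 13.4% of all genes. With TGF-β against Smad4 KO 6 fell, beside 8.48%. G6pc, which releases free glucose, was at 13.1 and 13.3 CPM in WT and 96.8 and 95 in Smad4 KO, and Tkfc, which phosphorylates glyceraldehyde from fructose, rose 2.35-fold. Pck2, the mitochondrial PEP carboxykinase, fell 2.15-fold with Smad4 loss and 1.51-fold with TGF-β (adjusted p = 0.00013 and 0.003).

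Of 12 tested genes that carry pyruvate into the mitochondrion or control its entry, 1 fell in Smad4 KO against WT, beside 13.4% of all genes. This was Pdp2 (-0.23, adjusted p = 0.048), a call lost without any 1 of the 6 libraries (-0.28 to -0.18). It was also lost with DESeq2 size factors (adjusted p = 0.0516), no filter (0.0686), the replicate block (0.0637) and the 4 libraries compared (0.0739). With TGF-β against Smad4 KO 5 fell and 1 rose, beside 8.48% and 7.78% of all genes. Against WT 7 fell and 1 rose, beside 19% and 20.7%. Pdha1, a subunit of pyruvate dehydrogenase and the substrate of the Pdk1 kinase, fell by 0.23 ± 0.04 on the log2 scale with TGF-β (adjusted p = 0.0098), which was lost without the first Smad4 KO library (adjusted p = 0.0555) or the second treated library (0.056). In the pentose phosphate branch, 3 of 7 genes rose with Smad4 loss and 1 fell, beside 16.9% and 13.4% of all genes. The dehydrogenases of its oxidative arm were among those that rose: G6pdx was at 108 and 107 CPM in WT, 169.7 and 171 in Smad4 KO and 215 and 219 with TGF-β, and Pgd rose 1.92-fold with Smad4 loss (adjusted p = 6.3e-06). Of Pfkfb1, Pfkfb2 and Tigar, Pfkfb2 rose 1.94-fold with Smad4 loss (adjusted p = 0.00032).

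Markers of epithelial cell types moved in the same libraries. The 20 enterocyte genes summed to 6313 and 6371 CPM in WT, 17718 and 17798 in Smad4 KO and 12290.4 and 12376 with TGF-β. Of them, 16 rose and 2 fell in Smad4 KO against WT, beside 16.9% and 13.4% of all genes. With TGF-β against Smad4 KO 2 rose and 17 fell, beside 7.78% and 8.48%. In the treated group against WT they were mixed, with 10 higher and 6 lower (log2 fold changes from -2.6 to 3.11), beside 20.7% and 19%. The 12 crypt base genes, Lgr5 and Olfm4 among them, summed to 7717 and 7626 CPM in WT, 4551 and 4558 in Smad4 KO and 3121 and 3095 with TGF-β. The sums of the proliferation and goblet genes below also fell over the 3 groups. So did Pgk1, Pdk1 and Bnip3 above, while Ldha, Ndrg1, Ddit4 and Hilpda had other orders. The 12 proliferation genes summed to 2787 and 2777 CPM, 1969.1 and 1968.5, and 1862.5 and 1864. In Smad4 KO against WT 11 of them were lower, beside 13.4% of all genes. With TGF-β against Smad4 KO, edgeR called 0 of them lower (3 at an unadjusted p under 0.05) and DESeq2 1. By edgeR 8.48% of all genes were lower there. Sums fell from 8033 and 8059 CPM in WT to 3205 and 3363 in Smad4 KO for Paneth genes, and from 975 and 987 to 396 and 414 for enteroendocrine genes, while goblet genes went from 4811 and 4802 to 3909 and 3804 and then to 2010.5 and 1997 with TGF-β. In Smad4 KO against WT, 7 of 9 Paneth genes tested fell and 1 rose, beside 13.4% and 16.9% of all genes. Of 10 enteroendocrine genes 8 fell and 0 rose there, and of 10 goblet genes 6 fell and 2 rose. Genes of the fetal-like regenerative state summed to 412.5 and 387 CPM in WT, 1028 and 1014 in Smad4 KO and 4393 and 4474 with TGF-β. Early stress genes such as Fos and Atf3 summed to 383 to 399 CPM in WT and Smad4 KO and to 504 and 514 with TGF-β. The part of these shifts in the results on the 35 genes was not tested.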

How the data were processed

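The authors deposited estimated counts, held as whole numbers, for each Ensembl gene in 6 libraries. The submitters' processing notes list StringTie 1.3.3b, HISAT2 2.1.0, SAMtools 1.9, FastQC 0.11.9 and the build GRCm38 (mm10). The annotation release, the strand setting and any rounding step were not given in the sources used here. Among values from 1 to 24, 42.3% were multiples of 4 (25% if spread evenly), so a unit is probably less than a fragment, and 40.5 to 50.7 M units would be about 10.1 to 12.7 M fragments. The fit takes its error from the replicates.

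Libraries were grouped by their titles. Genes were filtered with filterByExpr (15503 kept), scaled by TMM and fitted with edgeR 4.0.16 in R 4.3.3 (glmQLFit and glmQLFTest, 2-sided, all 6 libraries, group as the only term, 3 residual degrees of freedom). Adjusted p-values are Benjamini-Hochberg over the 15503 genes, with a threshold of 0.05. Symbols, positions and exon lengths come from GENCODE vM21, the length being that of all annotated exons of a gene merged. Near-identical copies were found with BLAST 2.17.0. Promoter sequences are from RefSeq (GRCm38.p6).

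The members and lists were chosen with earlier results of these data known. Values per library are given for members that passed with a log2 fold change of at least 0.5 in size in any comparison, for Gapdh and for members that passed against their list, and for some others to set beside them. From each pathway list up to 3 genes with the smallest adjusted p are named, except 1 gene not reported here; Arnt2, Egln2 and Slc2a1 were named after their values were seen. Alternatives were size factors, DESeq2 1.42.0, no filter, 4 libraries only, a replicate block, division by 4, each library left out, and a threshold of 0.01. The replicate numbers did not pair the libraries.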

Additional observations from a re-analysis of the deposited data

How the results depend on the processing

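Over the members and named genes, no log2 fold change that passed changed sign under any alternative run; some that did not pass (Hk1, Gpi1, Pfkp, Pfkm, Pfkfb3 and Pkm, in the comparisons where they missed the threshold) did when 1 library was left out. In Smad4 KO against WT, 733 of 753 values stayed on their side of the threshold, in TGF-β against Smad4 KO 697 of 753 and in the treated group against WT 717 of 753. Leaving out each library in turn gave 1166 to 1867 genes lower in Smad4 KO against WT (2084 with all), 656 to 1108 higher and 848 to 1196 lower with TGF-β against Smad4 KO (1206 and 1315 with all). It gave 1 to 2 members and 1 to 2 other HIF targets higher there, and 6 to 9 other HIF targets lower. Against WT it gave 1 to 2 members and 0 to 1 enzymes higher in the treated group; the enzyme was Eno2, at under 1 CPM. At a threshold of 0.01 the counts over all genes were 1702 higher and 1016 lower in Smad4 KO against WT, 593 and 715 with TGF-β against Smad4 KO, and 1728 lower in the treated group against WT, and 1 member, also the 1 other HIF target, was higher with TGF-β. DESeq2 gave 2 members higher in the treated group against WT. With the replicate block, 19, 20 and 26 members were lower in the 3 comparisons, against 19, 21 and 28 without it; same-numbered libraries deviated together by a correlation of 0.001 to 0.014, so the numbers are not a pairing.

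The cause of these moves was not tested, except that a library left out also means fewer samples. With 2 libraries per group a lone library is assumed to vary like the other groups. Depth limits Adm, Eno2 and Hilpda most.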
